A study of Mus musculus with 4 samples.

Results

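The 10 genes described here are the Notch receptors Notch1, Notch2 and Notch4, the ligands Dll4, Jag1 and Jag2, and the transcriptional targets Hey1, Hey2, Heyl and Hes1. They were chosen by symbol, and all 10 were found among the 32285 genes of the single-cell tables. Notch signalling runs between neighbouring cells: a Delta-like or Jagged ligand on one cell binds a Notch receptor on the next, the receptor is cut, and its intracellular part enters the nucleus and joins the DNA-binding factor Rbpj to switch on Hey and Hes genes. In the embryonic heart the pathway is known for its part in the endocardium, where it takes part in trabeculation of the ventricles and in the formation of the valve cushions, and for the Hey repressors that mark atrial and ventricular muscle.

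Hearts were taken at E10.5 from C57BL/6J mice of a CRISPR/Cas9 line, either wild type (Wt) or homozygous for the Cyp51 allele I383V (Cyp51 I383V/I383V, Ho). Cyp51 encodes lanosterol demethylase, an enzyme of cholesterol synthesis, and the allele is carried by every cell of the embryo and not by the heart alone. Whole hearts were dissociated, red blood cells were lysed, and 3′ droplet libraries were made, 2 for each genotype (Wt1, Wt2, Ho1 and Ho2). How many hearts each library pooled was not given in the sources used here, so that p-values measure the spread between libraries, which may in part be technical.

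Each captured mRNA molecule carries a unique molecular identifier (UMI), and the values are UMI counts. After limits on depth and the removal of likely doublets, 29168 cells were used, 8908 and 7154 from the Wt libraries and 6980 and 6126 from the Ho libraries, with medians of 10561, 14216, 15658 and 15832 UMIs per cell. Cells were placed in 6 gates by marker genes that are not among the 10. Endothelial cells carried at least 2 UMIs of Cdh5 and were split by Npr3 into chamber endocardium (2973 cells, at least 2 Npr3 UMIs) and other endothelium (1310 cells, none). Cardiomyocytes were split into ventricular cells (3834, high Myl2 and no Stard10) and atrial cells (3028, low Myl2 with Stard10), and mesenchymal cells into cushion mesenchyme (2211, high Hapln1) and Crabp1 mesenchyme (3142, high Crabp1). UMIs were summed over the cells of a gate in each library, which gave 24 sums. Levels are given as UMIs of the gene per 1000000 UMIs of the sum (CPM) with the SD over the 4 libraries. A 3′ library yields 1 end per molecule, so the values were not divided by gene length, and levels are compared between gates and not between genes.

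Markers that were not used for the gates set the broad classes apart. The ventricular factor Irx4 had 45.8 to 61.3 CPM in the ventricular gate and a mean of 0.901 CPM in the atrial gate, and the atrial factor Nr2f1 reached 90.5 CPM in the atrial gate and 3.47 CPM in the ventricular one. The endothelial gene Pecam1 stood at 137 CPM in chamber endocardium and 174 CPM in other endothelium, while the endocardial factors Nfatc1 (47.8 and 76.8 CPM) and Gata4 (59.3 and 108 CPM) were higher in other endothelium, and the endocardial gene Plvap (295 and 223 CPM) was higher in the chamber gate. Twist1, a mesenchymal factor, reached 717 CPM in the cushion gate. Of 6 genes listed for pharyngeal mesenchyme, Foxf1, Prrx1, Prrx2 and Col1a1 were higher in the Crabp1 gate on average, among them Foxf1 at 49.5 CPM beside 0.958 CPM in cushion cells, and Tcf21 (63.4 beside 95.9 CPM) and Pdgfra (47.1 beside 86.2 CPM) were lower there. Nfatc1, Plvap and Gata4 together had 402 CPM in chamber endocardium and 408 CPM in other endothelium. The 3 genes listed as vascular had 1901 and 1024 CPM, most of it Mest (1878 and 982 CPM). Other endothelium held 138 CPM of Twist1, and 5 cushion genes together had 477 CPM there beside 117 CPM in chamber endocardium. Whether its own cells carried these transcripts was not tested. The gates may be mixed. The cushion gate held 38.5 CPM of Pecam1, so that it retained endothelial transcripts, and their part in its Notch1 and Dll4 values was not tested.

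The library Ho1 stood apart in several respects. Its Crabp1 gate held 43 cells, under the 50 cells set as a minimum, beside 2293 in Wt1, 440 in Wt2 and 366 in Ho2. Those cells had 5.70 CPM of Foxf1, against 29.8 to 96.8 CPM in the other libraries. The other genes listed for pharyngeal mesenchyme were not low there. Prrx1, Prrx2 and Tcf21 lay within the range of the other libraries. Col1a1 (194 CPM beside 48.5 to 134 CPM) and Pdgfra (57.0 CPM beside 40.7 to 48.3 CPM) were above it. The 6 genes together had 755 CPM, beside 595 to 803 CPM. Of the cushion gene Postn these cells had 171 CPM, against 8.11 to 20.8 CPM. The other endothelium of Ho1 had 5.12 CPM of the vascular tight-junction gene Cldn5, against 37.9 to 76.4 CPM in the other libraries. Lyve1 and Mest, listed with Cldn5 as vascular, lay within the range of the other libraries. The 7 endothelial genes Pecam1, Kdr, Tie1, Tek, Emcn, Egfl7 and Cldn5 together had 1083 CPM there, beside 1498 to 1607 CPM. Emcn (129 CPM beside 230 to 261 CPM) and Egfl7 (477 CPM beside 675 to 714 CPM) were among those lowest in Ho1, and Tek was within range. Together, 4 haemoglobin genes had 2393 CPM there, against 114 to 183 CPM. Ho1 was also the library in which the female transcript Xist was counted, with 28877 UMIs and at most 5 in any other library, so that the sex of the embryos was not balanced. Between 9 and 28 cell barcodes were shared by any pair of libraries. The part of these features in the results was not tested, and values without Ho1 are given where they matter.

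Both endothelial gates were the main site of Notch1, the broadly used receptor of the endocardium. The gene lies on chromosome 2 at 26457903 to 26516663 of the minus strand (GRCm38, GENCODE M21, as for all positions of genes). In chamber endocardium Notch1 had 80.1 and 83.8 CPM in Wt1 and Wt2 and 87.1 and 86.2 CPM in Ho1 and Ho2. In other endothelium it had 82.9, 71.3, 91.0 and 90.6 CPM in the same order. The ranges of these gates overlapped, and the difference between them was 0.07 ± 0.13 on the log2 scale (SE, edgeR's quasi-likelihood test, adjusted p = 0.731). The level was lower, without overlap between the ranges, in cushion mesenchyme at 40.4 ± 3.00 CPM (SD, n = 4), then in Crabp1 mesenchyme at 15.9 ± 11.1 CPM, and then in cardiomyocytes, where ventricular (1.89 ± 1.01 CPM) and atrial cells (1.29 ± 0.279 CPM) overlapped. Ho1 was the highest library of the Crabp1 gate, at 32.3 CPM on 17 UMIs beside 8.68 to 12.5 CPM. Of 7 endothelial genes in that sum, Pecam1 (45.6 CPM beside 4.67 to 12.7 CPM) and Egfl7 (70.3 CPM beside 39.3 to 47.97 CPM) were highest in Ho1 as well, Kdr was within the range of the other libraries, and Tie1, Tek, Emcn and Cldn5 had 0 UMIs, where 3 counts would be 5.70 CPM. The ventricular value was also highest in Ho1, at 3.38 CPM beside 1.23 to 1.68 CPM elsewhere. Of the same 7 genes Pecam1, Kdr, Tie1 and Tek were highest in Ho1 there (Tek at 3.86 CPM beside 0.768 to 1.08 CPM) and Emcn, Egfl7 and Cldn5 were not. The part of endothelial RNA in these values was not tested.

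Notch4, a receptor known from blood vessels (chromosome 17, 34564268 to 34588503, plus strand), followed the endothelial gates too. It averaged 15.5 ± 4.24 CPM in other endothelium and 12.7 ± 1.92 CPM in chamber endocardium, and the ranges overlapped. All other gates were at 3.34 CPM or below. Notch2 (chromosome 3, 98013527 to 98150361, plus strand) had another order. It was highest in cushion mesenchyme, at 34.5, 44.7, 49.0 and 46.2 CPM in Wt1, Wt2, Ho1 and Ho2, followed by Crabp1 mesenchyme at 26.8 ± 1.96 CPM, and no library of the cushion gate overlapped the Crabp1 range. The 3 receptors thus differed in their preferred cells: Notch1 and Notch4 in endothelium, Notch2 in mesenchyme.

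Dll4, the Delta-like ligand of arteries and endocardium (chromosome 2, 119325784 to 119335962, plus strand), was the member most limited to endothelium. Chamber endocardium had 22.1 and 20.8 CPM in the Wt libraries and 19.4 and 21.3 CPM in the Ho libraries. Other endothelium had 13.7, 12.2, 8.04 and 17.4 CPM, all below every chamber value. Cushion mesenchyme averaged 1.00 ± 0.583 CPM, and the remaining gates averaged at most 0.231 CPM. No Dll4 UMI was counted in the ventricular gate of Wt1, where 3 counts of the total would be 0.459 CPM, nor in the Crabp1 gate of Ho1, where they would be 5.70 CPM. These limits cover counting error only.

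Jag1 was arranged nearly the other way round. This ligand (chromosome 2, 137081456 to 137116644, minus strand) had its lowest level in chamber endocardium, at 9.79, 9.88, 7.38 and 9.52 CPM in Wt1, Wt2, Ho1 and Ho2, below every value of any other gate. Other endothelium stood at 27.6 ± 6.29 CPM, atrial cardiomyocytes at 41.9 ± 2.25 CPM and ventricular cardiomyocytes at 19.7 ± 1.07 CPM. The highest mean was in Crabp1 mesenchyme, with a wide spread: 29.6 and 97.1 CPM in Wt1 and Wt2, and 55.1 and 82.7 CPM in Ho1 and Ho2. Its range overlapped that of atrial cardiomyocytes, so the first place is not settled. Jag2, the other Jagged ligand (chromosome 12, 112907819 to 112929776, minus strand), was highest in atrial cardiomyocytes at 15.9 ± 1.33 CPM, with every library above every value of the next gate, other endothelium (8.37 ± 2.79 CPM).

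**Figure D1:**
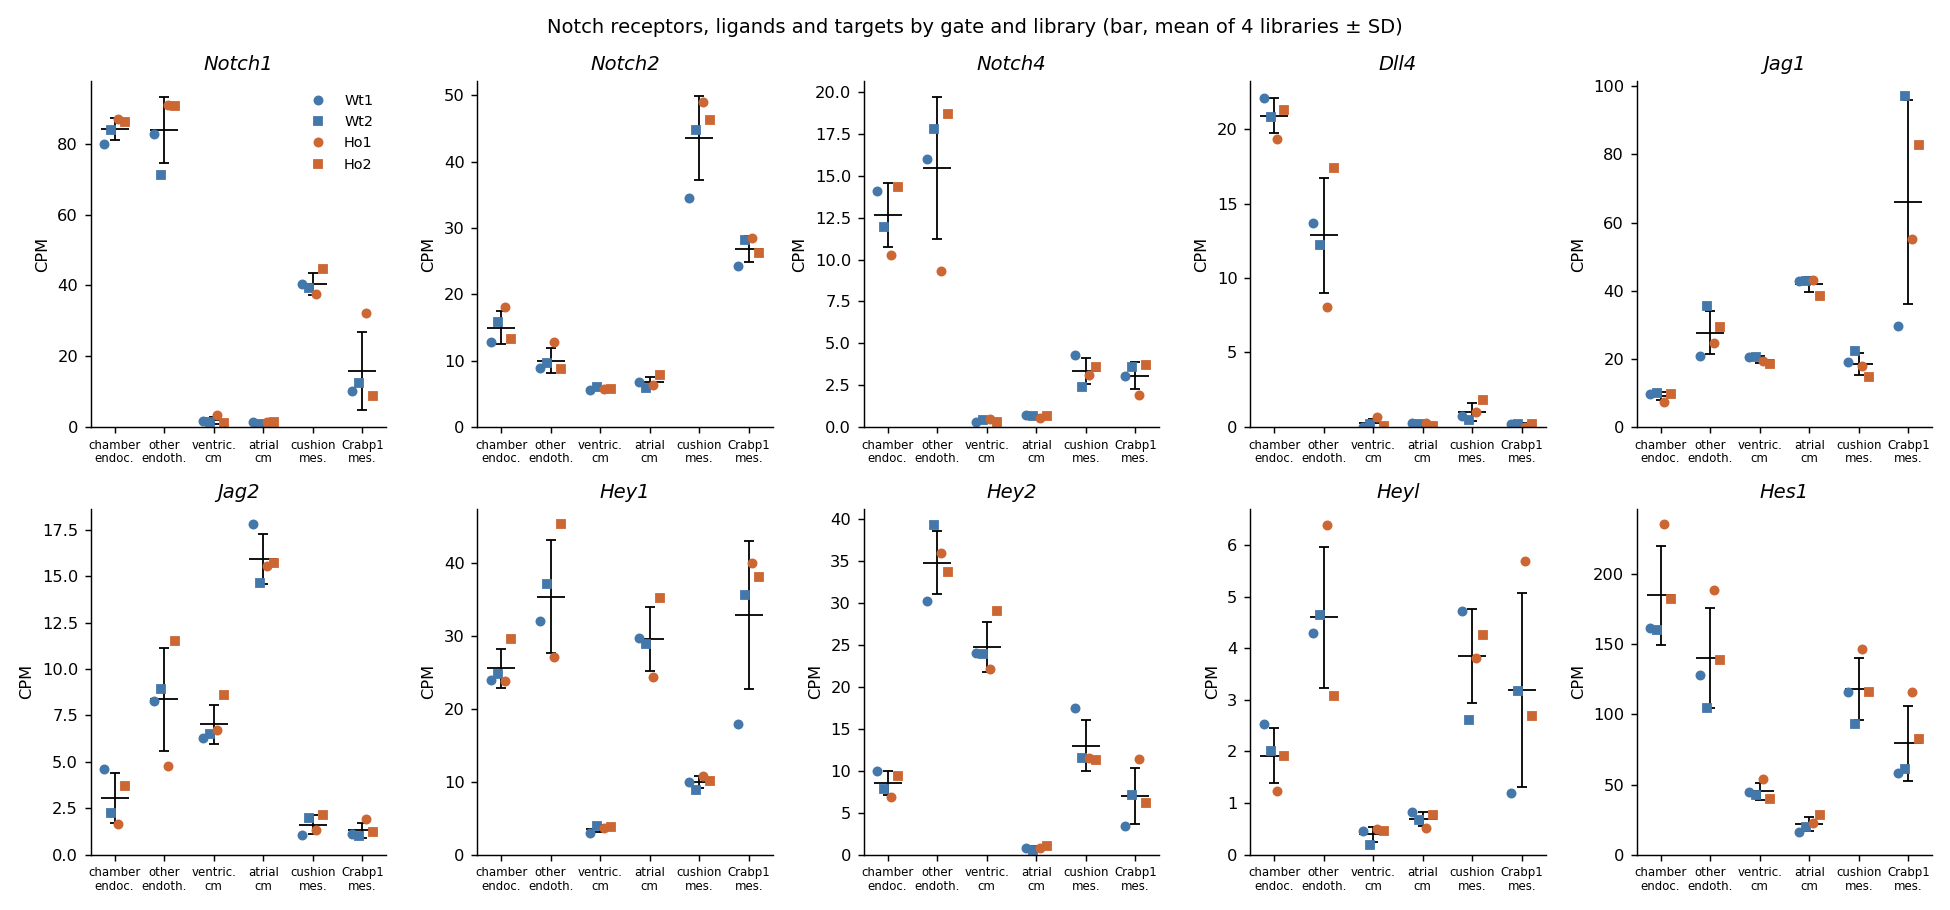
Level of each of the 10 genes (vertical axes, CPM from 0) in the 6 gates, with 1 point for each library and a bar for the mean of 4 libraries ± SD. Notch1, Notch4 and Dll4 stand high in both endothelial gates, Notch2 in cushion mesenchyme, Jag2 in atrial cardiomyocytes, and Hey1 and Hey2 in opposite cardiomyocyte gates.

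Per cell, Notch1 and Dll4 were again found most often in the endothelial gates. After each cell was thinned to 5000 UMIs, so that depth could not set the order, a Notch1 UMI was found in 33.2 ± 3.23% of chamber endocardial cells (SD over 4 libraries) and in 0.898 ± 0.760% of ventricular cells. A Dll4 UMI was found in 11.2% of chamber endocardial cells of Wt1 (60 of 536, exact 95% interval 8.65 to 14.2%). In Wt2 it was found in 96 of 917 cells (8.56 to 12.6%), and in the Ho libraries in 9.18 and 9.28%. In atrial cells the mean was 0.089%, and the level of free RNA was not measured. Without thinning the Dll4 share in chamber endocardium was 29.4%, at median depths of 15626 to 20141 UMIs, and in atrial cells 0.33%, at 15426 to 19357 UMIs. Thinning left out at most 5 chamber endocardial cells of a library. It left out 256 and 355 ventricular cells of Wt1 and Wt2 and 278 and 144 of Ho1 and Ho2, which were shallower. Not every order by mean CPM was kept by the mean share after thinning. Hes1 was found in 41.0% of cushion and 39.9% of other endothelial cells. Hey1 was highest in Crabp1 mesenchyme (16.4%, with 13.7% in other endothelium). Hey2 stood at 4.38% in Crabp1 mesenchyme and 4.20% in chamber endocardium. The ranges of these gates overlapped for each of these genes.

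**Figure D2:**
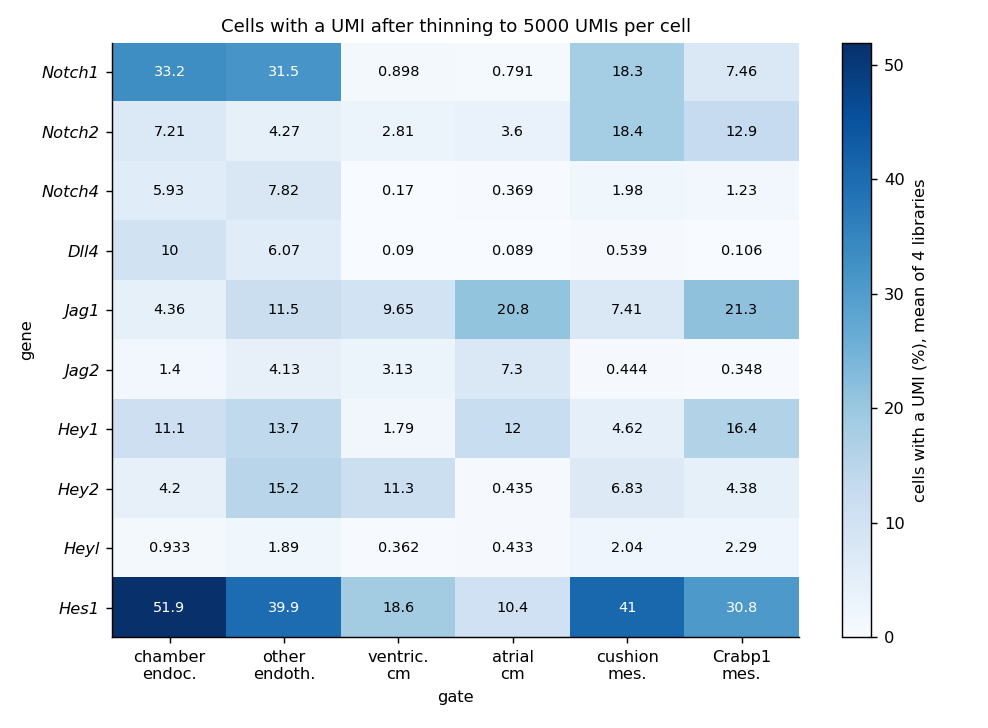
Percent of cells with at least 1 UMI of each gene in each gate after thinning to 5000 UMIs, as the mean of 4 libraries (colour and number). Dll4 stays at or below 0.54% outside the endothelial gates, and Hes1 ranges from 10.4% in atrial cardiomyocytes to 51.9% in chamber endocardium.

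The Hey genes encode basic helix-loop-helix repressors that Notch switches on. Hey1 (chromosome 3, 8663359 to 8667256, minus strand) and Hey2 (chromosome 10, 30832359 to 30842801, minus strand) were split between atrial and ventricular muscle. Hey2 had 24.03, 23.9, 22.2 and 29.0 CPM in the ventricular gate of Wt1, Wt2, Ho1 and Ho2, and 0.825, 0.608, 0.798 and 1.08 CPM in the atrial gate. Hey1 had 2.91, 3.91, 3.60 and 3.84 CPM in the ventricular gate and 29.7, 28.9, 24.4 and 35.2 CPM in the atrial gate. For both genes the 4 libraries of one chamber lay entirely on one side of the 4 of the other. Ventricular minus atrial, the difference was 4.97 ± 0.21 on the log2 scale for Hey2 (adjusted p = 4.75e-14) and -2.91 ± 0.15 for Hey1 (adjusted p = 1.14e-12).

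In endothelium both Hey genes were present. Hey2 was highest of all gates in other endothelium, at 30.3, 39.3, 36.0 and 33.8 CPM, and low in chamber endocardium, at 10.0, 7.82, 6.86 and 9.34 CPM. Hey1 averaged 35.4 ± 7.79 CPM in other endothelium, 32.9 ± 10.1 in Crabp1 mesenchyme, 29.6 ± 4.43 in atrial cardiomyocytes and 25.5 ± 2.73 in chamber endocardium, and each of these neighbours in the order overlapped the next. Hey2 in mesenchyme stood at 13.0 ± 3.04 CPM in cushion and 7.03 ± 3.33 CPM in Crabp1 cells, while Hey1 was lower in cushion cells (9.95 ± 0.788 CPM) than in every Crabp1 sum.

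**Figure D3:**
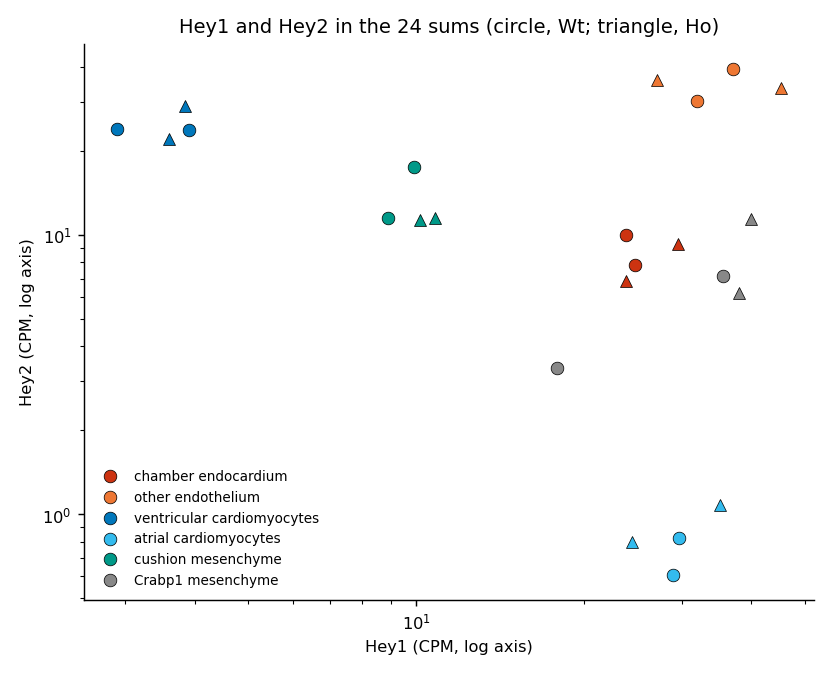
Hey1 against Hey2 (both axes CPM, logarithmic) in the 24 sums, coloured by gate, with circles for Wt and triangles for Ho libraries. The ventricular sums lie at the upper left and the atrial sums at the lower right, other endothelium is high in both genes, and Hey1 of the Crabp1 sums spreads from 17.9 to 39.9 CPM.

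Because Hey2 was the member that differed most between the cardiomyocyte gates, its promoter is shown. RefSeq promoters of 300 bases (250 before to 50 after the start, GRCm38.p6) were held for 7 of the 10 members: Notch1, Notch2, Notch4, Dll4, Jag1, Jag2 and Hey2. The Rbpj core GTGGGAA was searched on both strands. It was found 2 times in the Hey2 promoter (chr10:30842734-30843033, minus strand) and in none of the other 6. The first match starts 207 bases before the start on the opposite strand, and the second 4 bases before it on the gene's strand. Of all 32851 promoters, 6.38% held at least 1 match and 0.256% held 2 or more. The sequence is printed 5′ to 3′ with the matches in capitals.
Hey2: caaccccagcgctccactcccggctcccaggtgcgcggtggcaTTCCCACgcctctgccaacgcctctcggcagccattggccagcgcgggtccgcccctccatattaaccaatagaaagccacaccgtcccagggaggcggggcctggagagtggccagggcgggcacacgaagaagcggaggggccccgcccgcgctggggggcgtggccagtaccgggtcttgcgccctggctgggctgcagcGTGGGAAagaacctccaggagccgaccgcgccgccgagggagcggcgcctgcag
A match of these letters is a description and was not tested for binding.

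Hes1, another repressor of this class and a widely used readout of Notch activity (chromosome 16, 30064384 to 30067796, plus strand), was counted in every gate. Its mean level fell from 185 ± 35.4 CPM in chamber endocardium through 140 ± 35.6 in other endothelium, 118 ± 22.1 in cushion mesenchyme and 79.4 ± 26.7 in Crabp1 mesenchyme to 45.2 ± 6.08 in ventricular and 21.8 ± 5.06 in atrial cardiomyocytes. The first 4 gates overlapped their neighbours in this order, and the last 2 stood clear. Heyl (chromosome 4, 123233556 to 123249875, plus strand) was scarce throughout. Its mean was 4.60 ± 1.37 CPM in other endothelium, on 12 to 35 UMIs per library, and 3.85 ± 0.908 CPM in cushion mesenchyme. The ranges of these gates and of Crabp1 mesenchyme overlapped, and after thinning the share of cells was 1.89, 2.04 and 2.29% in these 3 gates, so that no first place is settled.

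The gates were compared in 1 edgeR fit over the 24 sums with the library as a block, and p-values were adjusted over 13487 genes. All comparisons share this fit, and some share gates. Endothelial minus cardiomyocyte gates, 78.6% of all genes tested were called, and 10 of 10 members were: 8 higher and 2 lower, with a median of 1.91 beside -0.0030 for all genes. The largest differences among members were those of Dll4 (5.79 ± 0.24, adjusted p = 2.37e-16), Notch1 (5.48 ± 0.14, adjusted p = 2.03e-20) and Notch4 (4.53 ± 0.14, adjusted p = 7.16e-19). The size for Dll4 is loose, since the muscle sums held 0 to 15 UMIs of it, 15 of them in ventricular cells of Ho1, and without Ho1 it was 6.74. The Jagged ligands were the 2 members lower in the mean of the endothelial gates, Jag1 by -1.09 ± 0.15 (adjusted p = 7.31e-07) and Jag2 by -1.37 ± 0.13 (adjusted p = 2.46e-09). This did not hold gate by gate: in other endothelium Jag1 was above the ventricular level in every library (27.6 against 19.7 CPM on average), and Jag2 overlapped it.

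Against the mesenchymal gates, 58.2% of all genes were called, and 9 of 10 members: 7 higher and 2 lower in endothelium. Dll4 was higher by 5.22 ± 0.25 (adjusted p = 3.76e-14) and Notch4 by 2.19 ± 0.11 (adjusted p = 1.36e-13). Jag2 was higher in endothelium here, by 1.93 ± 0.21 (adjusted p = 5.22e-08). Notch2 was lower by -1.40 ± 0.08 (adjusted p = 3.41e-13), as was Jag1 by -1.03 ± 0.16 (adjusted p = 8.22e-06). Heyl did not pass the test (0.18 ± 0.23, adjusted p = 0.526).

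Within endothelium, chamber endocardium minus other endothelium, 27.3% of all genes were called and 8 of 10 members, 3 higher and 5 lower. Dll4 (0.79 ± 0.19, adjusted p = 0.00309), Notch2 (0.64 ± 0.12, adjusted p = 0.000426) and Hes1 (0.47 ± 0.11, adjusted p = 0.00213) were higher in chamber endocardium. Hey2 was lower by -2.03 ± 0.16 (adjusted p = 3.6e-09), Jag1 by -1.57 ± 0.24 (adjusted p = 3.72e-05), Jag2 by -1.48 ± 0.23 (adjusted p = 4.08e-05) and Heyl by -1.29 ± 0.30 (adjusted p = 0.00275). Hey1 was lower by -0.40 ± 0.13 (adjusted p = 0.0243), so that Hes1 and the 3 Hey genes differed in direction here. The Notch2 call was lost with looser gates (0.15, adjusted p = 0.261) and the Hes1 call without the library block (0.455, adjusted p = 0.0975). The Hey1 call was lost without Wt2 (-0.35, adjusted p = 0.141), without Ho2 (-0.33, adjusted p = 0.161) and with looser gates (-0.10, adjusted p = 0.607). The Heyl call was lost without Ho1 (-0.88, adjusted p = 0.0791), and the calls of Dll4 (0.63) and Jag2 (-1.47) held without it.

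Between ventricular and atrial cardiomyocytes 32.2% of all genes were called and 5 of 10 members. Beside the opposite Hey genes described above, Hes1 was higher in ventricular cells by 1.13 ± 0.12 (adjusted p = 1.23e-07), and Jag1 (-1.01 ± 0.19, adjusted p = 0.000232) and Jag2 (-1.06 ± 0.15, adjusted p = 1.2e-05) were higher in atrial cells. The receptors and Dll4 did not pass the test, with Notch1 at 0.76 ± 0.32 (adjusted p = 0.0754). Without Ho1 this Notch1 difference was 0.260. In edgeR Notch1 was called with no filter on low counts (0.747, adjusted p = 0.0353), with stricter gates (1.40, adjusted p = 0.0074) and with no Crabp1 gate (0.782, adjusted p = 0.0275). Between cushion and Crabp1 mesenchyme 43.4% of all genes were called and 8 of 10 members. Notch1 (1.84 ± 0.18, adjusted p = 2.15e-08), Hey2 (1.45 ± 0.22, adjusted p = 9.28e-06), Hes1 (0.70 ± 0.12, adjusted p = 4.54e-05) and Notch2 (0.69 ± 0.10, adjusted p = 4.43e-06) were higher in cushion cells, while Jag1 (-1.72 ± 0.22, adjusted p = 9.25e-07) and Hey1 (-1.47 ± 0.16, adjusted p = 1.01e-07) were higher in Crabp1 cells. With the library Ho1 left out, its cushion sum included, these 6 differences were 2.01, 1.53, 0.742, 0.689, -1.73 and -1.53. Without Wt1 the difference of Hey2 was 0.825. Dll4 (2.18 ± 0.70, adjusted p = 0.0153) and Heyl (0.93 ± 0.34, adjusted p = 0.0307) were also called higher in cushion cells, and both calls were lost without Wt1, at 2.41 (adjusted p = 0.111) and 0.194 (adjusted p = 0.732), and without Ho2, at 1.85 (adjusted p = 0.0622) and 1.01 (adjusted p = 0.075).

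**Figure D4:**
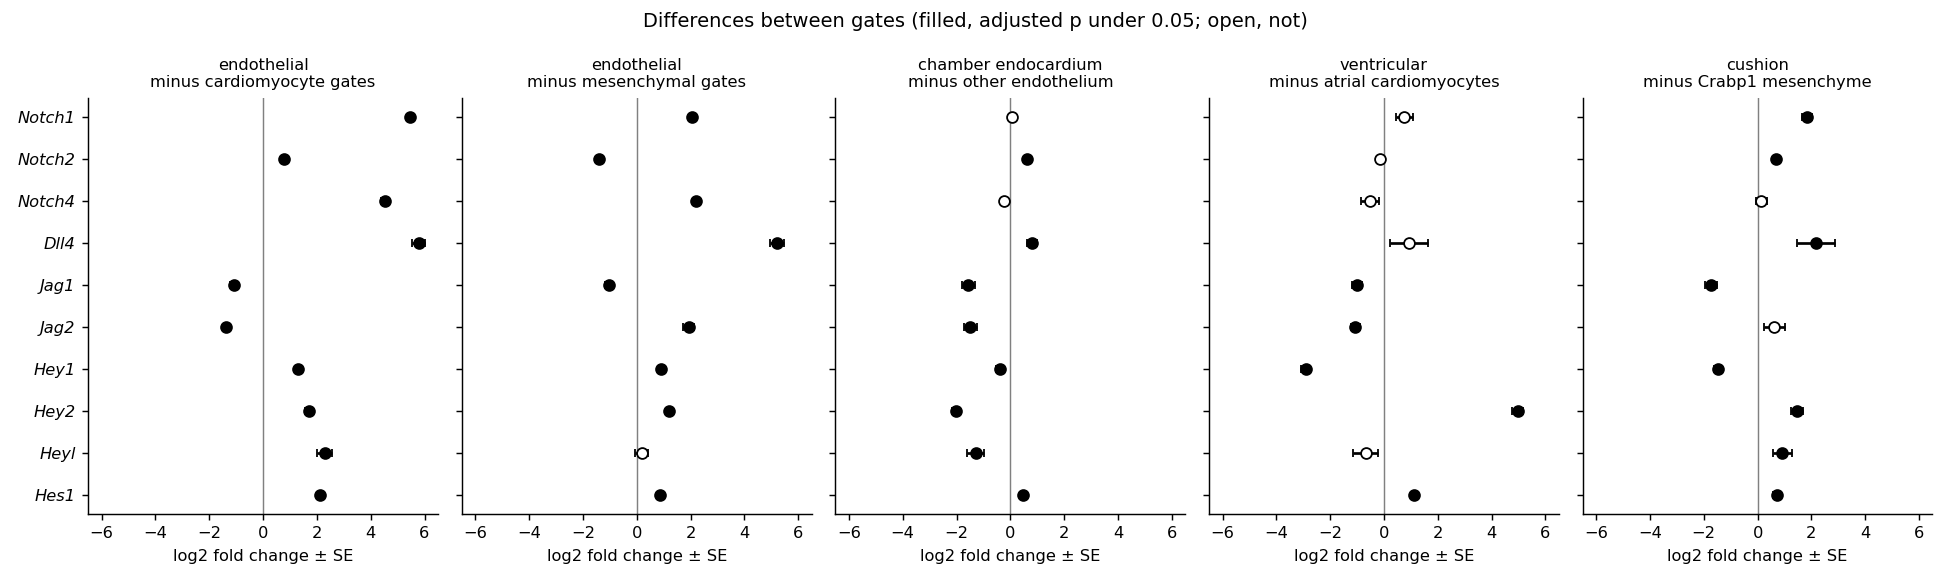
Difference of each gene between gates (horizontal axes, log2 fold change ± SE from the edgeR fit) in the 5 comparisons, filled where the adjusted p is under 0.05. Hey2 at 4.97 and Hey1 at -2.91 lie on opposite sides in the ventricular minus atrial panel, and Jag1 is negative in all 5 panels.

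Other genes of the pathway were taken from a list of 44, of which 36 entered the fit. Endothelial minus cardiomyocyte gates, 26 were called higher and 6 lower, where 78.6% of all genes were called. Among those that followed Dll4 and Notch1 into endothelium was Mfng, a fringe enzyme that adds sugars to Notch (6.88 ± 0.24). The ligand Dll1 (4.38 ± 0.18) and Nrarp, a target and feedback inhibitor of the pathway (4.20 ± 0.19), were others. Nrarp averaged 23.2 ± 1.10 CPM in chamber endocardium and 26.6 ± 2.27 CPM in other endothelium, and at most 1.28 CPM in the cardiomyocyte gates. The 6 genes lower in endothelium, on the side of the Jagged ligands, included Neurl1b, a ubiquitin ligase for the ligands (-6.55 ± 0.30), at 6.32 ± 0.999 CPM in ventricular and 6.78 ± 1.24 CPM in atrial cells. The core factor Rbpj differed little, by 0.32 ± 0.06. Against the mesenchymal gates 15 were called higher in endothelium and 10 lower, beside 58.2% of all genes.

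Between the endothelial gates 11 of the 36 were called, 5 higher and 6 lower, beside 27.3% of all genes, which sets nothing about the list apart. Dll1 was higher in chamber endocardium, as was Dll4, at 1.50 ± 0.17 (adjusted p = 7.63e-07), and Mfng was lower at -1.04 ± 0.17 (adjusted p = 6.85e-05). Nrarp did not pass the test there (-0.14 ± 0.18, adjusted p = 0.611). Between ventricular and atrial cells 5 of 36 were called, beside 32.2% of all genes, among them Maml3, a coactivator of Notch and Rbpj, which was higher in ventricular cells (0.95 ± 0.14, adjusted p = 1.86e-05). Between cushion and Crabp1 mesenchyme 11 were called higher and 10 lower, beside 43.4% of all genes. Dlk1, a ligand-like protein without the Delta domain that activates Notch, was lower in cushion cells by -3.45 ± 0.26 (adjusted p = 3.23e-10) and the γ-secretase subunit Psen2 was higher by 1.83 ± 0.15 (adjusted p = 1.75e-09). A second list of 14 genes of the heart and arteries that stand beside the pathway had 13 called between endothelial and cardiomyocyte gates, 8 higher and 5 lower, beside 78.6% of all genes, with Sox17 (7.94 ± 0.17) and Gja4 (7.33 ± 0.22) at one end and Bmp10 (-6.89 ± 0.21) at the other.

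The genes whose levels were most like those of 5 members were found by Pearson's r of log2(CPM + 1) over the 24 sums, among 5372 genes with a mean of at least 20 CPM. The sums share 4 libraries and differ mostly by gate, so r is a description. For Dll4 they were Gja4, the artery gap-junction gene (r = 0.975), Cib1 (0.975), Klhl4 (0.972), Rab11a (0.972) and Esam (0.972), and for Notch1 Fn1 (0.994), Ramp2 (0.991), Npdc1 (0.988), Bvht (0.987) and Arap3 (0.987). For Jag1 they were Gabarapl2 (0.914), Brwd1 (0.870), Mff (0.867), Bmp4 (0.857) and Lrrfip2 (0.857), a looser likeness than for either of the first pair. For Hey1 they were Dipk1a (0.935), Nr2f2, which encodes an atrial and venous nuclear receptor (0.864), Fads2 (0.838), Ttc1 (0.829) and Anapc16 (0.821). For Hey2 they were Cmtm7 (0.901), Ncoa7 (0.842), Reep3 (0.829) and Pdlim1 (0.826).

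Ho was then compared with Wt in each gate, which asks whether the Cyp51 allele went along with a change of the pathway. With all 4 libraries, no member was called in any gate by edgeR with its filter on low counts or by DESeq2. Calls of Hes1 under other settings are given below. After the filter on low counts 53 of 60 tests of a member in a gate remained, with differences of -0.50 to 0.78 on the log2 scale, SE of 0.0812 to 0.744 and adjusted p of 0.457 to 1.000, and 6 tests had an unadjusted p under 0.05. Few genes of any kind were called: 0.0238% of 12590 in chamber endocardium, 0.036% of 11107 in other endothelium, 0.0473% of 12672 in ventricular and 0.0% of 12928 in atrial cardiomyocytes, 0.0251% of 11964 in cushion mesenchyme and 0.0% of 11278 in Crabp1 mesenchyme. With 2 libraries against 2, a difference that misses the threshold does not show that the genotypes were alike. The smallest SE were those of Notch1 in chamber endocardium (0.12 ± 0.08, adjusted p = 0.893) and cushion mesenchyme (0.04 ± 0.11, adjusted p = 0.981), Dll4 in chamber endocardium (-0.03 ± 0.11, adjusted p = 0.994) and Jag1 in atrial cardiomyocytes (-0.05 ± 0.12, adjusted p = 1.000).

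**Figure D5:**
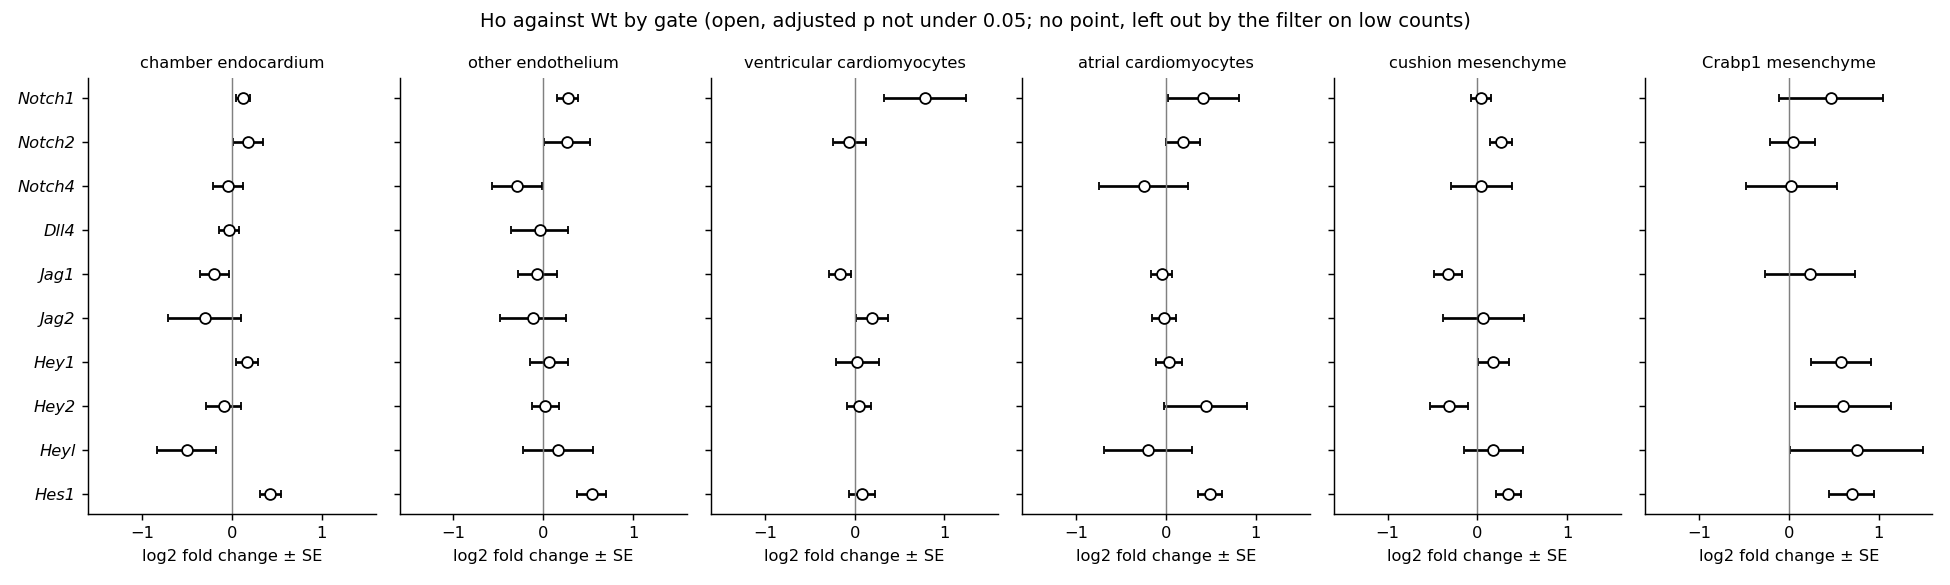
Ho against Wt for each gene (horizontal axes, log2 fold change ± SE from edgeR) in the 6 gates, all open because no adjusted p was under 0.05. Hes1 lies right of 0 in all 6 panels, from 0.08 in ventricular cardiomyocytes (-0.205 without Ho1) to 0.70 in Crabp1 mesenchyme. The panels share the same libraries and are not independent. In all, 7 positions are empty because the gene had too few counts.

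The gates share the same libraries, so the fits of the 6 gates are not independent. Hes1 had the lowest unadjusted p of the members in 5 of the 6 gates, all but ventricular cardiomyocytes. In chamber endocardium it had 162 and 160 CPM in the Wt libraries and 236 and 182 CPM in Ho1 and Ho2. In other endothelium it had 128, 104, 189 and 139 CPM, and in atrial cardiomyocytes 16.3, 19.99, 22.7 and 28.3 CPM. The Ho values were above the Wt values in these gates and in Crabp1 mesenchyme (58.1 and 61.0 against 116 and 82.5 CPM), and the genotypes overlapped in ventricular cardiomyocytes and cushion mesenchyme. The differences were 0.43 ± 0.12 in chamber endocardium (adjusted p = 0.457), 0.54 ± 0.16 in other endothelium (adjusted p = 0.721), 0.49 ± 0.13 in atrial cardiomyocytes (adjusted p = 0.893), 0.35 ± 0.14 in cushion mesenchyme (adjusted p = 0.893), 0.70 ± 0.25 in Crabp1 mesenchyme (adjusted p = 1.000) and 0.08 ± 0.14 in ventricular cardiomyocytes (adjusted p = 0.906). Ho1 was the higher Ho library in 5 of the 6 gates, and without it the value was 0.196 in chamber endocardium, 0.288 in other endothelium, 0.144 in cushion mesenchyme, 0.464 in Crabp1 mesenchyme and -0.205 in ventricular cardiomyocytes. Some fits that left a lone library in a genotype called Hes1, and they called more genes of any kind than the fits of all libraries. The Hes1 values there were 0.62 in chamber endocardium without Ho2, where Ho1 was the lone Ho library. They were 0.58 in atrial cardiomyocytes without Ho1 and 0.53 in cushion mesenchyme without Wt1. With no filter on low counts edgeR called Hes1 in chamber endocardium (adjusted p = 0.00136), where 172 of 19742 genes were called. It was also called in other endothelium (adjusted p = 0.00204), where 144 of 17922 genes were called. The share of chamber endocardial cells with a Hes1 UMI after thinning was 49.8, 47.1, 60.8 and 49.9% in Wt1, Wt2, Ho1 and Ho2, so that by share Ho2 stood with Wt1.

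Hes1 is also an early-response gene, so 8 genes of the stress and immediate-early response (Fos, Jun, Junb, Egr1, Atf3, Ier2, Hspa1a and Hspa1b, a list made after the values were seen) were read beside it. Their summed level in chamber endocardium was 1061, 1028, 1050 and 1053 CPM in Wt1, Wt2, Ho1 and Ho2, and the genotypes overlapped, while in other endothelium it was 1354 and 1244 against 1400 and 1421 CPM without overlap. It did not overlap in cushion mesenchyme (921 and 920 against 1006 and 1049 CPM) or in ventricular cardiomyocytes (808 and 783 against 935 and 1087 CPM) either, and it overlapped in atrial cardiomyocytes and Crabp1 mesenchyme. Jun was the most abundant of the 8 in every gate, and Atf3 was called higher in Ho in other endothelium (0.84 ± 0.10, adjusted p = 0.0285). The part of these genes in the Hes1 values was not tested.

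Across all 53 tests, 16 had no overlap between the genotypes, 10 with Ho above and 6 with Ho below. Among all genes tested such gaps were common: 36.8% in chamber endocardium (4 of 10 members), 34.9% in other endothelium (2 of 10), 38.2% in ventricular cardiomyocytes (2 of 7), 29.5% in atrial cardiomyocytes (2 of 9), 34.8% in cushion mesenchyme (4 of 9) and 26.8% in Crabp1 mesenchyme (2 of 8). The members' counts were near these shares and are no result about them. Jag1 was lower in both Ho libraries in chamber endocardium (-0.20 ± 0.16, adjusted p = 0.922), ventricular cardiomyocytes (-0.16 ± 0.12, adjusted p = 0.762) and cushion mesenchyme (-0.33 ± 0.16, adjusted p = 0.893), none of them called. Without Ho1 these values were -0.03, -0.232 and -0.517. In other endothelium Dll4, Notch4, Jag2 and Hey1 had their lowest value in Ho1 and their highest in Ho2. The 7 endothelial genes together were also lowest in Ho1 there (1083 CPM beside 1498 to 1607 CPM), Cldn5 among them. The part of these endothelial genes in the 4 low values was not tested.

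The genotype effect was also tested for a difference between paired gates. No member was called in the endothelial, cardiomyocyte or mesenchymal pair, where 0.0165% of 12133, 0.0% of 13368 and 0.0% of 12464 genes were called. Over whole libraries no gene was called (0.0% of 16978), and Hes1 stood at 0.40 ± 0.19 (adjusted p = 0.803). The other genes of the pathway gave 201 tests in the 6 gates, of which none was called and 10 had an unadjusted p under 0.05. The lowest adjusted p was that of Dlk1 in ventricular cardiomyocytes, with 39.5 and 33.8 CPM in Wt1 and Wt2 and 12.7 and 25.1 CPM in Ho1 and Ho2 (-1.02 ± 0.22, adjusted p = 0.154). Of the 14 heart and artery genes, Bmp2, a ligand that patterns the atrioventricular canal, was called in ventricular cardiomyocytes: 11.2 and 8.19 CPM in Wt1 and Wt2 against 17.9 and 22.4 CPM in Ho1 and Ho2, higher by 1.07 ± 0.17 (adjusted p = 0.0481). The call was lost with doublets kept (1.07, adjusted p = 0.0501) and at a stricter mitochondrial limit (1.08, adjusted p = 0.0567).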

How the data were processed

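Single-cell 3′ libraries of 2 Wt and 2 Ho heart samples were counted by the authors with Cell Ranger 6.1.1 on mm10, and Seurat 4.1.0 is also named in the submitters' processing notes. The deposited UMI counts are raw, per gene and called cell. Totals were 107377100 to 127018819 UMIs per library. Limits on cells were 20% mitochondrial UMIs, a depth between 500 and 50000 UMIs, and between 500 and 6000 genes. Scrublet (scanpy 1.11.5) removed the top-scoring 0.8% per 1000 cells.

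Gates used Otsu thresholds and UMI minimums. UMIs were summed per library and gate and tested with edgeR 4.0.16 in R 4.3.3 (TMM, filterByExpr, quasi-likelihood, Benjamini-Hochberg adjustment at 0.05), and DESeq2 1.42.0 was an alternative. The Crabp1 minimum fell to 1 UMI because Ho1 had too few cells. Shares have exact 95% intervals for counting error only, and a count of 0 allows 3 counts. Scripts were tested on simulated data. GENCODE M21 held 99.85% of gene identifiers.

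All 10 members are named. Other pathway genes came from a written list, by level and call, at most 8 per comparison, and the 5 most alike genes by Pearson's r, of which 1 is not reported here. Genes of the heart and artery list, and Dlk1 and Mfng between Ho and Wt, were named after their values were seen. The members and lists were chosen with earlier results of these data known. The 8 stress genes were chosen after the values were seen. Other settings tried were normalization, filters, blocks, gates, doublets and each library left out.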

Additional observations from a re-analysis of the deposited data

Results flagged for a closer look

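Heyl, the scarcest of the targets, had log2 ratios of mean CPM, Ho over Wt, of 0.569 in ventricular cardiomyocytes and -0.531 in chamber endocardium. All Ho values lay above the Wt values in the first gate, by as little as 0.461 against 0.459 CPM, and below them in the second. Such gaps were found for 38.2% and 36.8% of the genes tested in these gates. Heyl itself was left out of the ventricular test by the filter on low counts. The ventricular sums held 3 and 3 Heyl UMIs in the Wt libraries against 11 and 6 in the Ho libraries, the chamber sums 23 and 36 against 24 and 21, and the difference between the gates was not tested.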

How the results depend on the processing

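Of the 50 differences of members between gates, recomputed in 655 values, 633 kept direction and side of the threshold, 12 lost the call, 4 gained one and 6 turned. Of 20 member differences and that of Bmp2 between Ho and Wt, in 294 values, 263 kept both, 2 lost the call, 5 gained one and 24 turned. Some of these values could only stay the same. Looser gates left the ventricular, atrial and Crabp1 gates unchanged, and the stricter mitochondrial limit left chamber endocardium unchanged. In the cardiomyocyte gates 3 counts are 0.133 to 0.459 CPM, and Dll4, Notch4 and Heyl in muscle lie near these limits. The 526085 UMIs of Ho1 in the Crabp1 gate allow 5.70 CPM.

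Counts of genes called between Ho and Wt moved widely, and the cause was not tested. They were 3 in chamber endocardium, 4 in other endothelium, 6 in ventricular cardiomyocytes, 0 in atrial cardiomyocytes, 3 in cushion mesenchyme, 0 in Crabp1 mesenchyme and 0 in whole libraries. DESeq2 called 22 in chamber endocardium, 14 in ventricular and 7 in atrial cardiomyocytes, 10 in cushion and 1 in Crabp1 mesenchyme, and 23 in whole libraries. With no filter on low counts the gates gave, in the order above, 172, 144, 147, 48, 131 and 104, and 2 tests of members were called. With at least 10 counts in every library there were 5 in chamber endocardium, 2 in other endothelium, 10 in ventricular and 3 in atrial cardiomyocytes. Scaling by library size only, chosen after seeing the data, gave 0 in chamber endocardium and 13 in ventricular cardiomyocytes. Stricter gates gave 7 in chamber endocardium, 0 in other endothelium and 4 in atrial cardiomyocytes, looser gates 0 in chamber endocardium and 1 in other endothelium, and doublets kept 0 in other endothelium and 2 in ventricular cardiomyocytes.

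Left-out libraries gave 53 to 268 calls in chamber endocardium, 3 to 36 in other endothelium, 37 to 119 in ventricular and 43 to 180 in atrial cardiomyocytes, 17 to 66 in cushion and 0 to 2 in Crabp1 mesenchyme, 0 to 5 in whole libraries and 0 to 1 tests of members. The lone library left in a genotype was then assumed to vary like the pair of the other.

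Same-numbered Wt and Ho libraries deviated from their group means with correlations of -0.454 in whole libraries and -0.222 to 0.0120 in the gates, so that the numbers were not taken as pairs. With the replicate block the counts were 8 in chamber endocardium, 94 in ventricular and 25 in atrial cardiomyocytes and 33 in cushion mesenchyme, with no member called. With the numbers of the block crossed, added after seeing the data, they were 32, 63, 144, 24, 0 and 59 in the gates and 64 in whole libraries.

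Between gates, the counts were 3688, 4341, 5847, 10596 and 7853 for chamber minus other endothelium, ventricular minus atrial, cushion minus Crabp1, endothelial minus cardiomyocyte and endothelial minus mesenchymal gates. With at least 10 counts in every sum, where fewer genes were tested, they were 2003, 2195, 2807, 4595 and 3572. Left-out libraries gave 2382 to 3546, 2758 to 4190, 4441 to 5772, 10000 to 10617 and 6806 to 7293. Genotype effects that differed between the endothelial gates were 2, but 1 with another normalization (RLE), 0 without the library block and 9 with doublets kept. Left-out libraries gave 30 to 61 of them, 2 to 104 for the cardiomyocyte pair and 0 to 192 for the mesenchymal pair. The Dll4 share of chamber endocardial cells, 10.0% at 5000 UMIs, was 3.88% at 2000 and 29.4% without thinning.

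None of the differences that turned sign was called, before or after. With stricter gates Jag1 was -0.071 in Crabp1 mesenchyme and 0.003 in atrial cardiomyocytes, Jag2 was 0.015 in atrial cardiomyocytes, and Notch2 was 0.074 ventricular minus atrial. With looser gates Hey2 was -0.020 and Heyl -0.004 in other endothelium, and Notch4 was 0.055 chamber minus other endothelium. With doublets kept Jag2 was 0.007 in atrial cardiomyocytes and Dll4 0.013 in chamber endocardium, and with library size only Hey2 was -0.009 in other endothelium. With libraries left out the Ho minus Wt ranges across 0 were -0.377 to 1.17 (Jag1) in Crabp1 mesenchyme, -0.193 to 0.083 (Jag1) and -0.179 to 0.119 (Jag2) in atrial cardiomyocytes, -0.100 to 0.019 (Dll4) in chamber endocardium and -0.205 to 0.306 (Hes1) in ventricular cardiomyocytes. In other endothelium they were -0.316 to 0.400 (Hey1), -0.112 to 0.214 (Hey2), -0.521 to 0.558 (Heyl), -0.340 to 0.374 (Jag1) and -0.818 to 0.156 (Notch4). Between gates they were -0.001 to 0.113 (Notch1, chamber minus other endothelium), -0.327 to 1.23 (Dll4, ventricular minus atrial), -0.058 to 0.313 (Notch4, cushion minus Crabp1) and -0.113 to 0.351 (Heyl, endothelial minus mesenchymal). Other calls that changed were Notch2 chamber minus other endothelium with looser gates (0.15, adjusted p = 0.261), Hes1 (adjusted p = 0.0975) and Hey1 (adjusted p = 0.0724) there without the library block, Notch4 there with stricter gates (-0.439, adjusted p = 0.027), Dll4 cushion minus Crabp1 with doublets kept (1.86, adjusted p = 0.0529), and Notch1 ventricular minus atrial (0.76, not called), which was called with no filter (0.747, adjusted p = 0.0353), stricter gates (1.40, adjusted p = 0.0074) and no Crabp1 gate (0.782, adjusted p = 0.0275), but was 0.260 without Ho1 (adjusted p = 0.561).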

Other observations

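Of the 14 genes of the heart and arteries that stand beside the pathway, 8 were called between the endothelial gates, where 27.3% of all genes were: 1 was higher in chamber endocardium, the gap-junction gene Gja4 (0.81 ± 0.19, adjusted p = 0.00259 by edgeR), and 7 were lower, among them the arterial transcription factor Sox17 (-1.32 ± 0.11, adjusted p = 1.04e-08) and Bmp2 (-2.33 ± 0.49, adjusted p = 0.00107). Between cushion and Crabp1 mesenchyme 9 were called higher in cushion cells and 2 lower, beside 43.4% of all genes, including Sox17 (3.87 ± 0.34) and Gja4 (2.74 ± 0.45), in the same gate that held 38.5 CPM of Pecam1, and the part of endothelial transcripts in this was not tested.

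Dlk1 was lower in both Ho libraries in atrial cardiomyocytes as well, with 11.8 and 22.0 CPM in Wt1 and Wt2 and 5.64 and 8.18 CPM in Ho1 and Ho2 (-1.33 ± 0.24, adjusted p = 0.231). The fringe gene Mfng in other endothelium had 33.2 and 26.7 CPM in the Wt libraries, 8.59 CPM in Ho1 and 22.3 CPM in Ho2 (-0.98 ± 0.33, adjusted p = 0.816). Neither was called.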
